A study of Homo sapiens with 4 samples.

Results

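The 3 human Grainyhead genes GRHL1, GRHL2 and GRHL3 were examined, out of 19970 protein-coding genes of the RefSeq table on chromosomes 1 to 22 and X. They were chosen by name, as regulators of epithelial identity, with earlier results of these data known. Every open-chromatin interval inside each gene and to 100 kb on each side was taken. The material was HCT116, an established human colorectal carcinoma line, profiled by ATAC-seq, where a transposase inserts adapters into accessible DNA. All cells had been transduced with a pSin lentivirus and selected with puromycin. The 2 control libraries came from cells carrying the empty vector and the 2 FOXD2 libraries from cells carrying the vector with the coding sequence of the forkhead factor FOXD2. The labels do not say whether libraries of the same group are separate cultures or whether the stable cells were a pool or a clone, so p-values measure only the spread between these libraries, which may be technical. Below, paired values are replicate 1 and then replicate 2.

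Grainyhead proteins are transcription factors that bind DNA as dimers and keep genes of epithelial adhesion and barrier function accessible and active. GRHL2 is known as an activator of CDH1, the E-cadherin gene, and of claudin genes, and it stands in mutual repression with ZEB1, a driver of the mesenchymal state. GRHL3 is best known in epidermal barrier formation, wound closure and neural tube closure, and GRHL1 in the regulation of desmosomal cadherins in skin.

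The lists held 77752 and 72796 intervals in the controls, against 82739 and 64675 with FOXD2. Merged across libraries they gave 122856 regions, of which 75 lay in the 3 windows, built from 191 intervals. Read depth is unknown, but the fold and p of each interval together gave the tags stacked at its summit, from 9 to 114 tags (median 28) in these windows. A peak at the gene start was present in all 4 libraries for 66.4% of all protein-coding genes. Among marker genes it was present for 6 of 8 colon epithelium genes, among them EPCAM, CDH1 and CDX2, for 3 of 5 fibroblast and 3 of 5 neural genes, and for 0 of 5 leukocyte and 0 of 5 endothelial genes. The colon epithelium, fibroblast and neural counts lie near the share of all genes, so they do not tell the cell type, and an open start is not a measure of expression. The leukocyte gene CD3E had a start peak in both controls only, as did 0.861% of all genes, and the endothelial gene CDH5 in both FOXD2 libraries only, as did 0.426%. KRT20 had one in 3 libraries and VIL1 in control replicate 2 and FOXD2 replicate 2. A gene start means within 1000 bp of a start in the RefSeq promoter table or, for a gene not in that table such as GRHL2, of either end of the gene.

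GRHL1 (hg38, chromosome 2, 9951693 to 10002277) and GRHL3 (chromosome 1, 24319357 to 24364482) both lie on the plus strand, GRHL1 with 1 listed start and GRHL3 with 2, at 24319357 and 24323040. GRHL3-AS1, a long non-coding RNA gene on the opposite strand, starts between them at 24321991. The 3 starts below are shown because an open region covered each of them and the results return to those regions. Each is the RefSeq sequence (GRCh38.p14, the build of hg38) from 250 bases before to 50 bases after the start, 5′ to 3′ on the gene's strand, and capitals mark matches to CACCTG, an E-box of the kind bound by ZEB and SNAIL repressors, on either strand.
GRHL1 start, chr2:9951443-9951742, plus strand: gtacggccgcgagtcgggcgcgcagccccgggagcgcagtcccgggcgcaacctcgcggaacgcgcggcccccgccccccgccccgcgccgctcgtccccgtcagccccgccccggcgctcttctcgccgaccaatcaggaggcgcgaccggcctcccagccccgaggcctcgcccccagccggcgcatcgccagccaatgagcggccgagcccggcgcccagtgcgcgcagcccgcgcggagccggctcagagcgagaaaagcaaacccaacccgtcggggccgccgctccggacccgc
GRHL3 first start, chr1:24319107-24319406, plus strand: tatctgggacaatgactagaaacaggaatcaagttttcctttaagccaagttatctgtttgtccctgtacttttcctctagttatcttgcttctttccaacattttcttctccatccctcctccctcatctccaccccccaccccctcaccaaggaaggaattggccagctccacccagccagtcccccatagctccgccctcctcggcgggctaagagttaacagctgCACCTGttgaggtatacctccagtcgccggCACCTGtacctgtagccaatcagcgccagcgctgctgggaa
GRHL3-AS1 start, chr1:24321942-24322241, minus strand: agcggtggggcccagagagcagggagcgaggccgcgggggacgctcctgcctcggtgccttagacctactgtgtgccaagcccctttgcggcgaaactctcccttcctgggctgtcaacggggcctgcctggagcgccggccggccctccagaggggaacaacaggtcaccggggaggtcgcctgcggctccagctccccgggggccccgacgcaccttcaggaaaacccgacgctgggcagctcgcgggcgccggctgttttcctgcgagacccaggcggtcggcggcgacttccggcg

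The 3 sequences differed in composition. The GRHL1 start was 79.7% G and C with 52 CpG sites and the GRHL3-AS1 start 72.0% with 31, whereas the first GRHL3 start was 53.0% with 7. Over all 35116 promoters of the table the medians were 58.7% and 14. The first GRHL3 start held 2 E-box matches, at bases −21 to −16 and 9 to 14 counted from the start base as 0, and 20.6% of all promoters held at least 1. The Grainyhead letters AACCNGTT (in 1.73% of promoters, both strands searched) and the forkhead letters TGTTTAC (in 3.42%) matched none of the 3, nor did the E-box letters in GRHL1 and GRHL3-AS1. No match overlapped another.

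In the 75 regions, presence of a called interval was the readout. A region present in both FOXD2 libraries and in neither control is called gained, and the reverse lost. Of the 75, 29 (38.7%) were in all 4 libraries, against 32.5% of all regions, and 24 (32.0%) were in only 1, against 40.8%. Those in 1 library numbered 7 at GRHL1, 8 at GRHL2 and 9 at GRHL3, and those in 3 libraries 1, 1 and 3. There were 6 gained (8.0%) and 6 lost regions (8.0%), where 3.89% of all regions were gained and 3.87% lost. The 2 directions were thus balanced across the family. GRHL1 had 1 gained and 3 lost, GRHL2 had 2 of each, and GRHL3 had 3 gained and 1 lost. Over all protein-coding genes, windows with 3 or more lost regions made up 5.29%, with 3 or more gained 3.74%, with 2 or more gained 13.6% and with 2 or more lost 16.1%. Those windows were not matched for length or number of regions. The GRHL1, GRHL2 and GRHL3 windows held 25, 22 and 28 regions. The gained and lost intervals were mostly weak. Their median percentile of fold enrichment within their own list was 20.9 for gained and 23 for lost regions, against 70.7 for the regions in all 4 libraries. They ranged from 4.1 to 61.3 and from 0.5 to 67.5. Presence in all 4 libraries itself selects stronger regions, so this contrast was partly fixed by the definitions. The medians over all gained and lost regions were not computed. Gained intervals had 12 to 36 tags at the summit and lost ones 9 to 44.

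**Figure D1:**
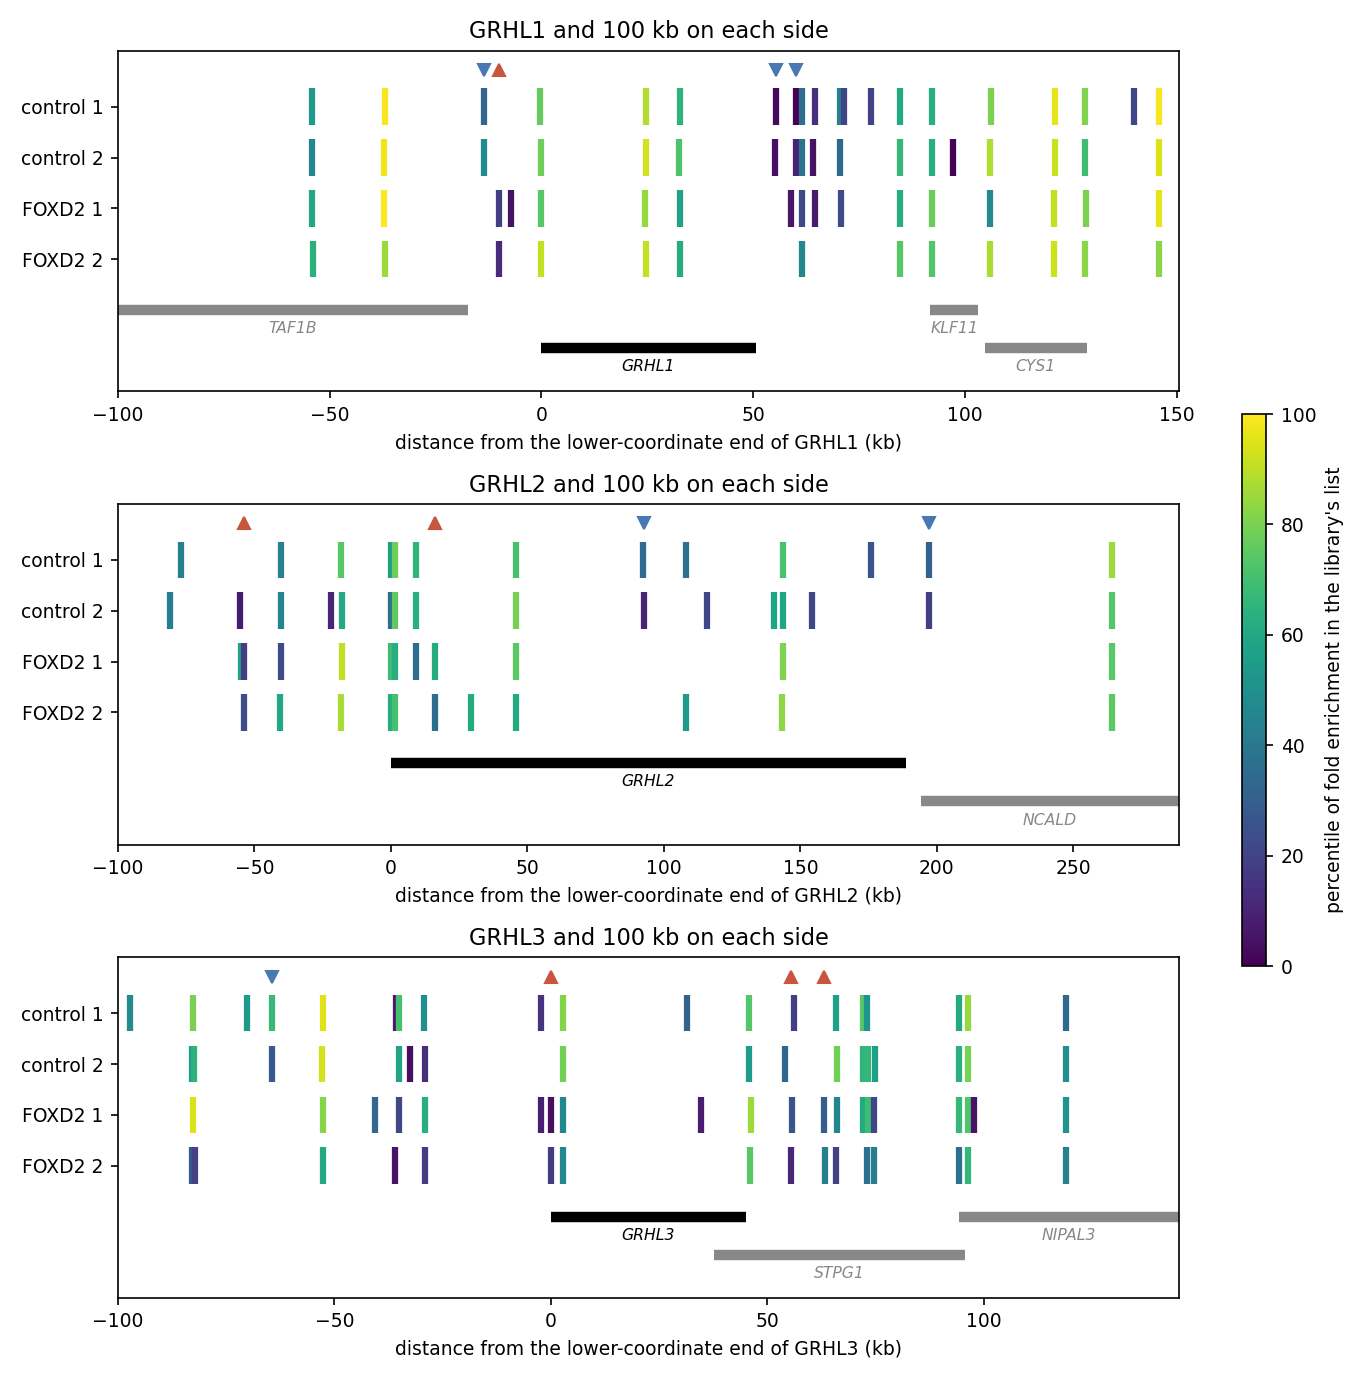
Called intervals of the 4 libraries (rows) in each gene and 100 kb on each side, by distance from the gene's lower-coordinate end in kb, colored by the percentile of fold enrichment within the library's own list. Interval ticks are wider than the intervals. Red upward triangles mark gained and blue downward triangles lost regions, black and gray bars protein-coding genes. Of the 12 marked regions, 3 lie inside a Grainyhead gene or across its start.

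Regions in all 4 libraries were compared by rank. For each library the fold enrichments of the 39933 regions present everywhere were turned into percentiles, so that all libraries were ranked over the same regions, and these are called common percentiles below. Both FOXD2 libraries ranked above both controls at 6 of the 29 family regions (20.7%, against 19.6% of all such regions) and below both at 5 (17.2%, against 19.1%). These shares were close to the background. The members differed in direction, with 3 higher and 1 lower of 7 at GRHL2, 1 higher and 4 lower of 10 at GRHL3, and 2 higher and 0 lower of 12 at GRHL1. The median difference, FOXD2 minus control, was 4.5 percentile points in the GRHL2 window, −4.5 in the GRHL3 window and −1.0 in the GRHL1 window, where all regions had a median of 0.0 and the central 80% lay between −16.3 and 15.9. With 2 libraries against 2, no exact permutation test can give a two-sided p below 0.33, so none of the comparisons could pass a usual threshold. Whether a lower rank comes from fewer cells with the site open or from less opening per cell cannot be told apart in bulk libraries.

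**Figure D2:**
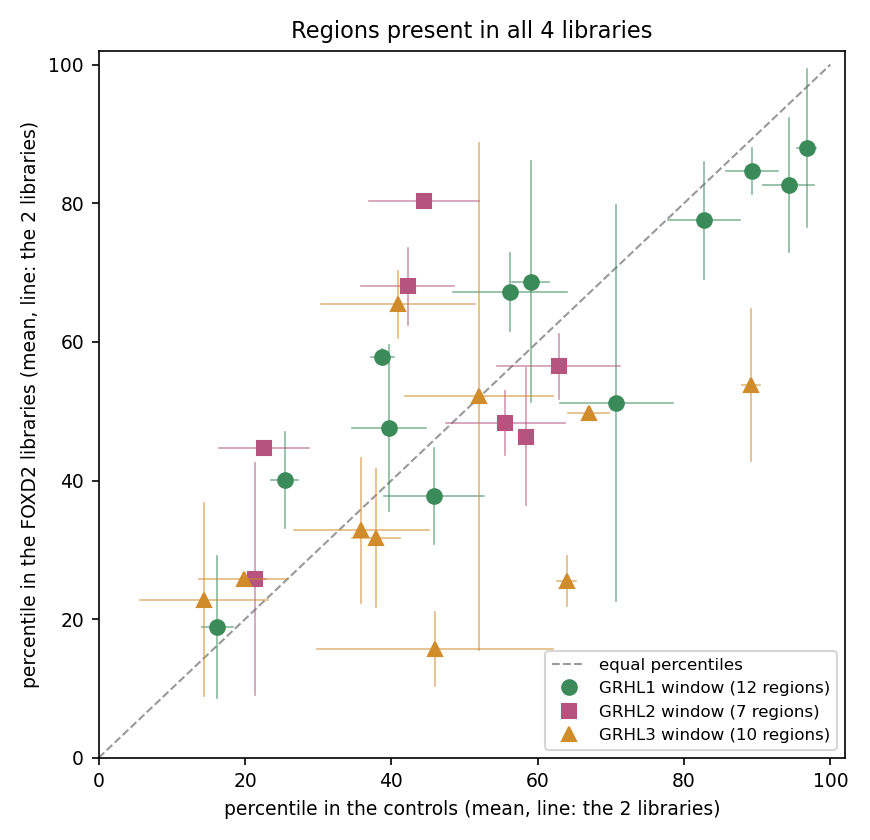
Common percentile of each region present in all 4 libraries, mean of the 2 controls on the x axis and mean of the 2 FOXD2 libraries on the y axis, with thin lines joining the 2 libraries of a group. Points above the dashed line ranked higher with FOXD2. The GRHL3 window holds 3 regions far below the line, at differences of −38.5, −35.3 and −30.3, and a region far above it, at 24.5. The GRHL2 window holds 3 far above it, at 35.9, 25.8 and 22.2.

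GRHL3 had the widest contrast of the gene starts. The open region over the GRHL3-AS1 start (chromosome 1, 24321555 to 24322668, 1114 bp), inside GRHL3 and 372 bp from its second start, was called in all 4 libraries. Its fold enrichment over local background was 9.32 and 8.88 in the controls, and 5.19 and 5.29 with FOXD2. Both FOXD2 values lay below both controls, and the replicates of a group lay close together. At its summit 76 and 77 tags were stacked in the controls, against 61 and 47 with FOXD2, over a local background of 7.26 and 7.78 against 10.9 and 8.08 tags, whose part in the result was not tested. The common percentile was 65.3 and 62.7 in the controls and 21.9 and 29.1 with FOXD2, means of 64.0 ± 1.80 and 25.5 ± 5.13 (SD, n = 2 each). The difference of −38.5 points had an exact permutation p of 0.33, the smallest possible, and 0.583 after Benjamini-Hochberg adjustment over the 7 permutation tests made. Only 0.631% of the 39933 regions had a lower difference.

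The first GRHL3 start differed the other way. An interval of 200 bp (24319243 to 24319442), spanning the start base and both E-box matches shown above, was called in both FOXD2 libraries and in neither control. With FOXD2 its fold was 3.11 and 4.00, which is percentile 4.1 and 17.6 of the respective list, with a −log10 q of 6.70 and 10.2. Its summits lay at base 10 and base −21 from the start, where the E-box matches begin at 9 and −21. How often summits fall on these letters elsewhere was not counted, the motifs were picked after values were seen, and binding was not tested. The 34 and 36 tags at the summit stood over a local background of 10.2 and 8.26 tags, the lowest background recovered in the windows being 1.84 tags for both FOXD2 libraries, and the part of that background was not tested. The interval is thus a weak one beside the stronger region downstream of it, and nothing was called there in the controls.

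**Figure D3:**
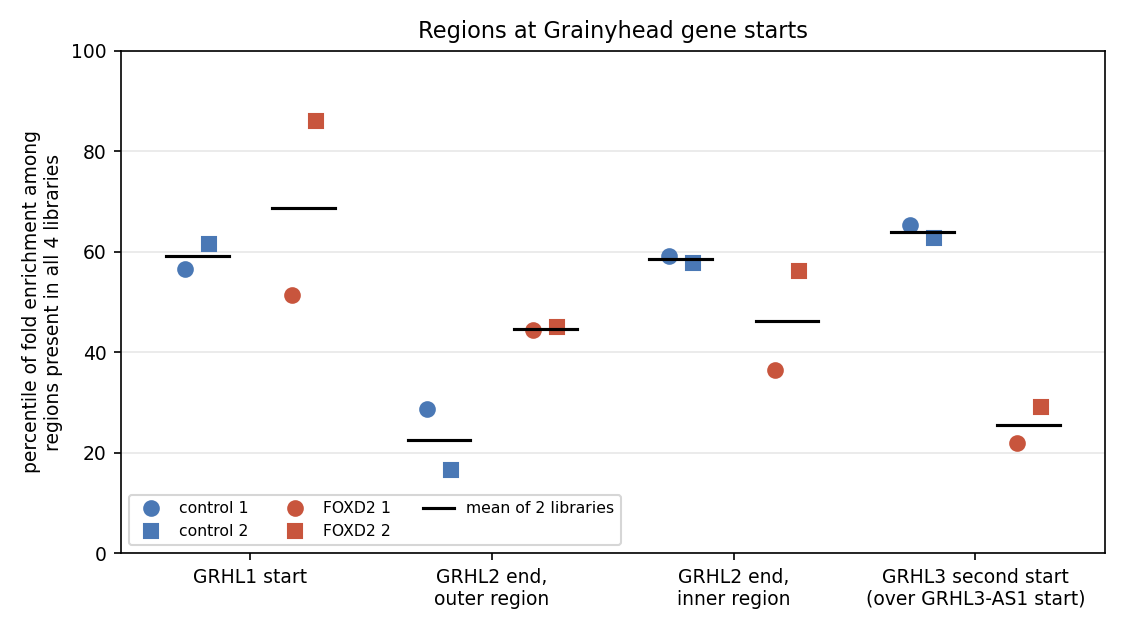
Common percentile (y axis, 0 to 100) of the 4 gene-start regions of the Grainyhead genes that were called in all libraries. Points are libraries (blue controls, red FOXD2, circle replicate 1, square replicate 2) and bars group means. The groups separate most over the GRHL3-AS1 start, 64.0 against 25.5, and overlap at the GRHL1 start.

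Away from its starts, GRHL3 had few open sites inside the gene. Of the 4 regions there, 1 was in all libraries and 1 was gained, both described above, and the others were in a single library each. The 3 highest-ranked sites in the rest of its window were all in flanks or neighbors. The first (24266280 to 24266983), in no annotated gene and 52374 bp below GRHL3, had a fold of 13.2 and 12.3 in the controls and 8.50 and 6.12 with FOXD2. Its common percentiles were 90.4 and 87.9 against 64.8 and 42.8, a difference of −35.3 points, and 1.02% of all such regions had a lower one. Here the summit tags were 51 and 53 in the controls and 24 and 17 with FOXD2. The local background was 2.94 and 3.38 tags in the controls and 1.94 in each FOXD2 library, and its part was not tested.

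The next site (24415368 to 24415900), at the starts of STPG1 and of the transporter-like gene NIPAL3, also ranked below both controls, with common percentiles of 69.8 and 64.2 in the controls and 49.6 and 49.8 with FOXD2. The region just past the higher-coordinate end of GRHL3 (24364577 to 24365918, 95 bp beyond it and inside STPG1) ranked above both controls, with 51.4 and 30.4 in the controls and 70.3 and 60.5 with FOXD2. Its folds, unlike its percentiles, overlapped between the groups, at 7.95 and 6.06 against 9.07 and 7.35. A further region inside STPG1 (24385052 to 24385539) had 29.9 and 62.1 in the controls and 21.0 and 10.4 with FOXD2. At a site below the gene (24236166 to 24237246) the FOXD2 libraries were far apart, at 88.7 and 15.6, with 62.1 and 41.8 in the controls. Low ranks with FOXD2 were thus found on both sides of GRHL3 as well as over the GRHL3-AS1 start, at 4 of the 10 regions. Of the others 1 ranked higher and at 5 the groups overlapped. Among those 5 was a region at the lower-coordinate end of NIPAL3 (24413249 to 24414001). It had common percentiles of 34.6 and 41.2 in the controls and 41.7 and 21.8 with FOXD2.

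The remaining gained and lost regions around GRHL3 were small. Gained ones lay inside STPG1 at 24374787 to 24375061, with 15 and 12 summit tags with FOXD2, and at 24382271 to 24382731, with 17 in each. In the latter the 2 intervals overlapped only between 24382524 and 24382573. The lost region (24254846 to 24255121), 64236 bp below the gene, had 23 and 13 tags in the controls, at percentile 67.5 and 27.6 of the respective list.

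GRHL2 (hg38, chromosome 8, 101492439 to 101681200) is the longest of the 3 genes, at 188762 bp, and the non-coding gene GRHL2-DT overlaps its lower-coordinate end. At that end were 2 neighboring open regions, and they differed in opposite directions. The outer region (101491967 to 101492794, 828 bp) covers the end of the gene and that of GRHL2-DT. Its fold was 6.05 and 4.96 in the controls against 6.80 and 6.27 with FOXD2, so both FOXD2 values lay above both controls. Its common percentiles were 28.7 and 16.5 in the controls and 44.5 and 45.0 with FOXD2, a difference of 22.2 points (exact permutation p = 0.33, adjusted 0.583), exceeded by 5.08% of all such regions. Summit tags were 79 and 65 in the controls and 105 and 83 with FOXD2. They stood over a local background of 12.2 and 12.3 against 14.6 and 12.4 tags, whose part was not tested.

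The inner region (101493208 to 101494487, 1280 bp), 769 bp into the gene, had a fold of 8.69 and 8.43 in the controls and 6.23 and 7.04 with FOXD2. Both FOXD2 values lay below both controls, with 114 and 112 summit tags in the controls and 94 and 92 with FOXD2, over a local background of 12.2 and 12.4 against 14.2 and 12.2 tags, whose part was not tested. Its common percentiles were 59.1 and 57.8 against 36.5 and 56.2, a difference of −12.1 points (exact permutation p = 0.33, adjusted 0.583). FOXD2 replicate 2 was within 1.6 points of control replicate 2, and without FOXD2 replicate 1 the difference was −2.2 points. Of all such regions, 15.4% had a lower one.

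The 3 highest-ranked sites of the window away from this end included 2 that ranked higher with FOXD2. The first (101474112 to 101474589), inside GRHL2-DT and 17850 bp below GRHL2, had a fold of 8.01 and 6.60 in the controls against 10.4 and 9.13 with FOXD2. Its common percentiles were 52.0 and 37.0 in the controls and 81.3 and 79.4 with FOXD2, a difference of 35.9 points, and 1.16% of all such regions had a higher one. Summit tags were 28 and 25 in the controls and 39 and 45 with FOXD2. They stood over a local background of 2.62 and 2.94 against 2.84 and 4.04 tags, whose part was not tested. The second lay deep inside the gene (101635732 to 101636101, 143293 bp from the lower-coordinate end), with common percentiles of 48.6 and 35.9 in the controls and 62.5 and 73.5 with FOXD2, a difference of 25.8 points exceeded by 3.51%. Its 30 and 28 summit tags in the controls compared with 40 in each FOXD2 library. The local background was 3.02 and 3.46 against 3.94 and 3.84 tags, and its part was not tested. The groups did not overlap at either site.

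Another of the 3 highest-ranked sites of the window (101756276 to 101756624) lay inside the neighboring calcium sensor gene NCALD, and its groups overlapped, at 71.3 and 54.5 in the controls and 51.8 and 61.2 with FOXD2. An inner GRHL2 site (101538156 to 101538631) was in all libraries and its groups overlapped too. Of the 13 regions inside GRHL2, 4 were in all libraries. A gained region inside the gene (101508584 to 101508811) had 18 and 15 summit tags with FOXD2, and another 53633 bp below it (101438589 to 101438806) had 13 and 17. A lost region inside the gene (101584850 to 101585136) had 12 and 9 tags in the controls, and another inside NCALD (101689549 to 101689813) had 19 and 16.

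**Figure D4:**
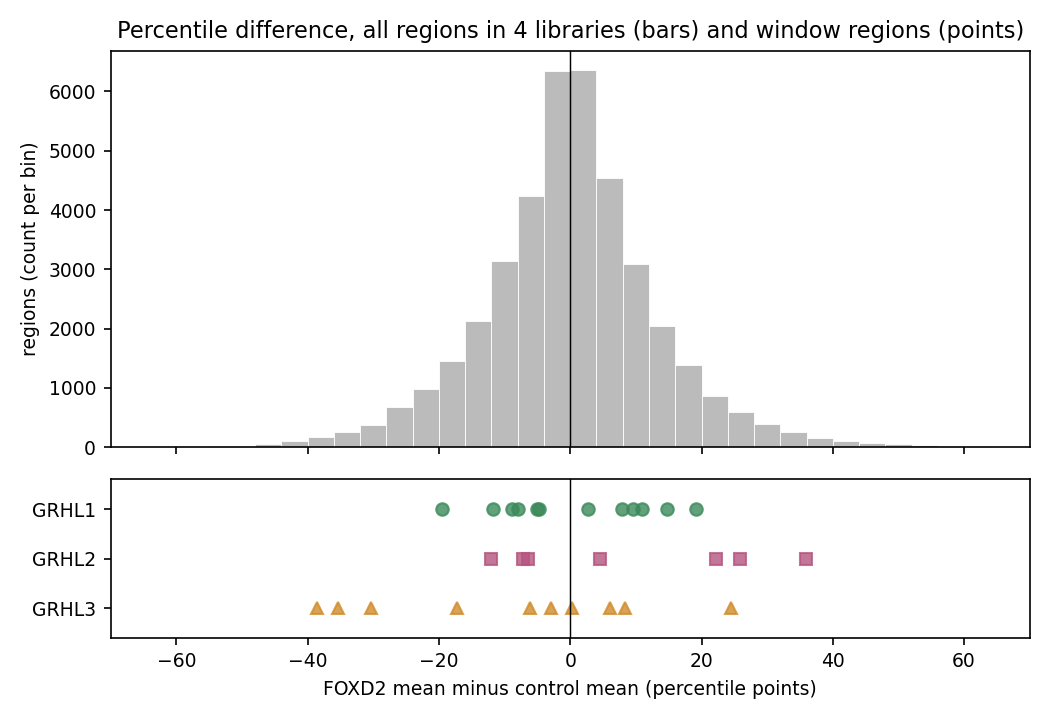
Difference of common percentile, FOXD2 mean minus control mean, for all 39933 regions in 4 libraries (bars, regions per bin of 4 points, upper panel) and for the 29 regions of the 3 windows (points, lower panel). The GRHL1 regions stay between −19.5 and 19.1, while those of GRHL2 range from −12.1 to 35.9 and those of GRHL3 from −38.5 to 24.5.

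GRHL1 had a broad open start whose rank did not separate the groups. The region (chromosome 2, 9950457 to 9952301, 1845 bp) covers the whole GRHL1 sequence shown above. Its fold was 8.45 and 8.81 in the controls against 7.37 and 10.0 with FOXD2, with 98, 86, 65 and 86 summit tags in that order. The 2 FOXD2 libraries lay on either side of the controls. Common percentiles were 59.1 ± 3.62 in the controls and 68.7 ± 24.6 with FOXD2 (SD, n = 2 each, exact permutation p = 1.0), and without FOXD2 replicate 2 the difference of 9.6 points turned to −7.1.

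The summit of this region was at base −172 from the start in both controls and at −72 and −80 with FOXD2. A description chosen after these values were seen counted regions whose summits lay within 20 bp of each other in each group and 50 bp or more apart between groups. It held for 1.56% of the regions in all 4 libraries and for 1.75% of those at gene starts.

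Away from the GRHL1 start, the groups overlapped in rank at every site in all libraries but 2. Those were the KLF11 start, described below, and a site inside TAF1B (9897451 to 9897968). The TAF1B site had common percentiles of 27.3 and 23.5 in the controls and 33.2 and 47.0 with FOXD2. The 3 highest-ranked were another site inside TAF1B, an RNA polymerase I factor gene (9914226 to 9915005), a site beyond CYS1 in no protein-coding gene (10097206 to 10097877), and a site inside CYS1, a ciliary protein gene (10072601 to 10073210). Their common percentiles ranged from 85.8 to 98.1 in the controls and from 72.9 to 99.3 with FOXD2, and the groups overlapped at each. Both inner GRHL1 sites were in all libraries. The stronger (9975965 to 9976618, 24272 bp from the start) had a fold of 10.9 and 12.3 in the controls and 8.94 and 10.0 with FOXD2, with overlapping common percentiles of 77.8, 87.6, 69.1 and 86.0 in that order. The weaker (9984129 to 9984488) had common percentiles of 39.0 and 52.6 in the controls and 30.9 and 44.7 with FOXD2.

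Gained and lost regions of GRHL1 all lay outside the gene. The gained one (9941320 to 9942023), 9670 bp below the start, had 22 and 18 summit tags with FOXD2. A lost region (9937930 to 9938308) lay 13385 bp below the start with 13 and 16 tags in the controls. The other lost regions were beyond the higher-coordinate end, at 10006730 to 10007237 with 22 and 21 tags and at 10011497 to 10011928 with 33 and 44, and neither stood above percentile 9.6 of a control list.

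The number of intervals in a window, scaled to the length of the list, was also compared. GRHL1 had 2.57 and 2.47 intervals per 10000 in the controls against 2.05 and 2.01 with FOXD2, means of 2.52 ± 0.0704 and 2.03 ± 0.0315 (SD, n = 2 each, exact permutation p = 0.33, adjusted 0.583). At GRHL1 the groups did not overlap. How often the windows of all genes separate in this way was not counted. GRHL2 had 1.67 and 2.2 in the controls and 1.33 and 1.70 with FOXD2 (exact permutation p = 0.667). GRHL3 had 2.44 and 2.34 against 2.42 and 2.47 (exact permutation p = 0.667). In both the groups overlapped.

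Genes linked to Grainyhead factors were taken from 3 lists, chosen with earlier results of these data known. Of 22 epithelial genes described as Grainyhead targets, 16 had a gene-start peak in all 4 libraries, where 66.4% of all protein-coding genes did. TGM1 and DSG1, genes of the cornified envelope and of desmosomes in skin, had one in no library, as did 23.3% of all protein-coding genes. The desmosomal plakophilin gene PKP1 had one in both controls and neither FOXD2 library, and 0.861% of all genes lost theirs in this way. The reverse was seen at 0 of these 22 genes and at 0.426% of all genes. OVOL2 and ARHGEF19 had one in 3 libraries and TGM5 in 1. Among the target genes with a start region in all 4 libraries, both FOXD2 libraries ranked above both controls at 7, namely CDH1, RAB25, ESRP2, ERBB3, DSP, PPL and EVPL. Over all 13170 genes with such a region this share was 21.3%. The median difference in the list was 4.5 points and 0.7 over all genes.

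Among these target genes the desmoplakin gene DSP had common percentiles of 41.1 and 51.4 in the controls against 62.1 and 82.7 with FOXD2. The envoplakin gene EVPL had 33.6 and 39.0 against 53.0 and 62.4, and the periplakin gene PPL 43.8 and 46.0 against 62.8 and 63.0. At CDH1 the groups nearly touched, with 64.9 and 56.9 against 64.9 and 66.0. The splicing regulator gene ESRP2 stood low in all libraries, at 5.6 and 10.5 against 11.3 and 16.8.

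All 3 genes of the CP2 branch of the family, TFCP2, TFCP2L1 and UBP1, had a start peak in all 4 libraries. Of all protein-coding genes, 66.4% had one in all libraries. TFCP2L1 had common percentiles of 49.3 and 40.2 in the controls and 78.2 and 86.0 with FOXD2, and UBP1 69.2 and 76.8 against 85.6 and 85.9, with no overlap at either. TFCP2 had 94.7 and 83.0 against 83.6 and 86.6. Both FOXD2 libraries ranked above both controls at 21.3% of all 13170 genes with a start region in all libraries. Of 10 factors that oppose or accompany the epithelial state, 8 had a start peak in all libraries and ZEB2 and TP63 in none. No library had one at 23.3% of all protein-coding genes. ZEB1, the repressor paired with GRHL2, had 41.0 and 38.7 in the controls and 54.4 and 57.8 with FOXD2. KLF5 also ranked above both controls, and TWIST1 and the epithelial ETS factor gene ELF3 below both, as were 15.1% of all 13170 genes with a start region in all libraries. ELF3 had 30.3 and 32.1 against 15.2 and 12.8. The median difference was 12.7 points in the CP2 list and −4.3 in the list of opposing and accompanying factors. Over all genes it was 0.7.

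The genes most like each member over the 4 libraries were found by the Euclidean distance between common percentiles of the strongest gene-start region, among 13169 other genes. They were SH3D21, DDX11 and INSR for GRHL1 (distances of 6.21, 6.61 and 6.70 points), NIPBL, IFI30 and EFCAB10 for the inner GRHL2 region (4.21, 5.28 and 5.69) and NPFFR1, RBMS3 and PRR15 for GRHL3 (6.68, 8.43 and 12.2). With 4 values a gene, this likeness is a description only.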

How the data were processed

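ATAC-seq libraries of 2 control and 2 FOXD2 samples were used, grouped by their titles. The tools named per the submitters' processing notes are MACS2 2.2.7.1, bedtools, Picard, Bowtie2 2.3.4.1 and cutadapt 3.4, and the build is hg38. For their roles, settings and any Tn5 shift the labels give nothing. The authors deposited 1 peak list per library. Each interval carries the authors' fold enrichment (a ratio to local background), −log10 p and −log10 q at its summit, and a deposited score derived from −log10 q, not used here. These are values of a peak within its list, and no counts per region were used. The lowest deposited −log10 q was 2.005 to 2.026, so weaker sites could not appear.

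Chromosomes 1 to 22 and X were kept (0.208% to 0.251% of intervals left out). Intervals overlapping by 1 bp were merged into regions with Python 3.11.15 and pandas 2.3.3, and the steps were tested on simulated data. A region with several intervals of a library took the highest fold. Summit tags and local background were solved from fold and Poisson p, matching the deposited −log10 p within 0.0002. Gene starts came from RefSeq tables (GRCh38.p14), for 15812 genes by listed start and for 4158 by both ends. Exons were not used. Promoter sequences were matched for GRHL1, GRHL3 and GRHL3-AS1. Exact permutation tests were two-sided over the 4 libraries. Described were all gene-start, gained and lost regions, the 3 highest-ranked other regions of each window in all libraries, genes of the 3 Grainyhead-linked lists with absent, gained or lost start peaks, and the 3 most alike genes. Other list and marker genes, the inner sites, motifs and the summit description were picked after values were seen. The ranks of 1 listed gene are not reported here. Members and lists were chosen with earlier results of these data known. Alternatives were a −log10 q of 5, summit windows of 100 bp to each side, an overlap of 100 bp, lists of equal length, flanks of 50 kb or none, other ranks, and each library left out.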

Additional observations from a re-analysis of the deposited data

How the results depend on the processing

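Of 117 values under alternatives, 81 kept within 1.5 times the reported count or within 1 SD between replicates. The SD of 2 libraries can be wide, so the second criterion is a loose one. At the GRHL1 start, 25.9 points without FOXD2 replicate 1 counted as kept beside the reported 9.6. The difference over the GRHL3-AS1 start stayed negative in every alternative, at −24.4 by rank of −log10 q, −33.5 by rank in the whole list, and from −41.5 to −34.4 with 1 library left out. At the inner GRHL2 region it ranged from −20.9 to −2.2 with 1 library left out, and at the GRHL1 start from −7.1 (without FOXD2 replicate 2, the direction turned) to 25.9. By rank of −log10 q it was only −4.5 at the inner GRHL2 region and 0.6 at the GRHL1 start. The outer GRHL2 region was not followed under the alternatives. Counts of gained and lost regions are small and moved readily. With a −log10 q of 5 or more GRHL1 had 0 gained and 1 lost, and GRHL2 1 and 1. With lists of equal length GRHL2 had 1 and 1, and GRHL3 2 lost. Summit windows gave GRHL3 3 lost. With a flank of 50 kb GRHL2 had 1 gained and GRHL3 0 lost, and in the gene body alone GRHL1 had 0 and 0, GRHL2 1 and 1, and GRHL3 1 gained and 0 lost. With 1 library left out, gained regions ranged from 1 to 3 at GRHL1, 2 to 3 at GRHL2 and 3 to 6 at GRHL3, and lost ones from 3 to 6, 2 to 7 and 1 to 5. Over all regions these ranges were 6986 to 22597 gained and 6868 to 19198 lost. Fewer libraries relax both definitions by construction.

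Control and FOXD2 libraries share replicate numbers, but the numbers did not pair them (correlation of 0.00338 between their deviations over regions in all 4 libraries). With a replicate block, added after seeing the data, the mean differences were the same, 9.6, −12.1 and −38.5 points for GRHL1, GRHL2 and GRHL3, with exact sign-flip p of 1.0, 0.5 and 0.5, where 0.5 is the smallest 2 pairs allow. A lowest summit of 9 tags limits detection, and an absent interval means only that none was called.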

Other observations

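Other gene starts in the GRHL1 window also held open regions in all 4 libraries. The start of KLF11 (chromosome 2, 10043201 to 10044540), a zinc finger factor of the TGF-beta response, had common percentiles of 37.2 and 40.3 in the controls against 56.6 and 59.0 with FOXD2, with no overlap. The start of CYS1 (10079456 to 10080883) had 64.0 and 48.4 against 61.6 and 72.8, which overlap. Its summit lay 128772 bp from the GRHL1 start in both controls and 128343 bp from it in both FOXD2 libraries, a difference in place like that at the GRHL1 start, and it met the same description that 1.75% of gene-start regions met. A region at the opposite end of CYS1 (10057266 to 10058167) had 63.0 and 78.5 in the controls but 22.6 and 79.8 with FOXD2, so the FOXD2 libraries differed more from each other than the groups did.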
